A study of Caenorhabditis elegans with 11 samples.

Results

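GRTS bins are 1 kb stretches of the genome of the nematode Caenorhabditis elegans that the authors marked in their deposited table, and in the field the name has been used for regions whose transcriptional silencing depends on germline nuclear RNA interference. The bins described here are the GRTS bins and the bins directly beside them. They were taken from the table as rows with a yes in its GRTS column, or with a position exactly 1 bin away from such a row, after removal of rows also marked GRH (used for regions of heterochromatin that depends on the same pathway) or misanotated (the table's spelling). Of 191 GRTS bins, 25 were left out because they also carried the GRH mark. Of 174 bins beside a GRTS bin, 14 were left out for the GRH mark and 1 for the misanotated mark. This left 166 GRTS bins and 159 neighbours, 325 of the 100257 bins in the table, and all 325 passed the filter on low values (a mean of at least 2 RPKM). No source used here tells how the authors assigned the marks, which could depend on hrde-1 mutant libraries. The values of GRTS bins with hrde-1 loss, and their contrast with unmarked bins, are therefore given as a description and not as independent evidence.

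The series profiled RNA polymerase II (Pol II) by chromatin immunoprecipitation and sequencing (ChIP-seq) in young adult hermaphrodites fed the OP50 strain of E. coli. There were 8 Pol II libraries, 1 for each genotype: the wild-type strain N2, hrde-1 (allele tm1200), set-32 (allele red11), the double mutant met-2 set-25 (alleles n4256 and n5021), and their 4 combinations. These were set-32 with hrde-1 (set-32 hrde-1), then set-32 met-2 set-25 (called the set-32 triple mutant), met-2 set-25 hrde-1 (called the hrde-1 triple mutant), and all 4 mutations together (called the quadruple mutant). The plots give full names. The 3 H3K9me3 samples of the series were not analysed here. In germ cells, small RNAs guide the nuclear Argonaute protein HRDE-1 to nascent transcripts, and transcription of the target is repressed while histone H3 around it is methylated at lysine 9. MET-2 and SET-25 are methyltransferases of that lysine, and SET-32, which also has a SET domain, has been studied in this pathway. Retrotransposons with long terminal repeats are among the known targets of the pathway. No gene or repeat is assigned to a bin here, because no source used here names the genome build of the table, and the gene positions at hand belong to a named build. Positions are those of the table, written as the first and last base of a bin or run of bins.

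Values are RPKM, reads scaled to bin length and library size, so that in bins of equal length a value stands for a share of all reads in its library. Judged from the step of 1 read among low values, a level of 10 RPKM rested on 30.0 to 65.9 reads, depending on the library. The median GRTS bin then rested on 11.5 to 46.9 reads in the 4 libraries with intact hrde-1 and on 89.8 to 344 reads in the 4 hrde-1 mutant libraries, a counting error of 14.6 to 29.5% and 5.39 to 10.6%. Coverage was more even in the quadruple mutant and in the set-32 triple mutant, where the 90th percentile over bins was 4.31 and 3.72 times the 10th, against 7.63 to 24.96 times in the other libraries. Outside the bins described, the bin III 13288001 to 13289000, picked for this contrast, read 0 to 0.17 RPKM in the 4 libraries labelled met-2 set-25 and 16.8 to 19.99 RPKM in the other 4. No bin was used to check the hrde-1 and set-32 labels. No 2 libraries held identical values. N2, met-2 set-25 and the hrde-1 triple mutant shared a prefix of the library name. The set-32, hrde-1, set-32 hrde-1 and quadruple mutant libraries shared another, and the set-32 triple mutant had its own. The animals were whole, so fewer germ cells and less Pol II per germ cell cannot be told apart.

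The 325 bins fell into 84 clusters, a cluster being an unbroken run of these bins. Bins left out for a mark also break or shorten runs, so sizes and gaps describe the bins kept. For example, IV 4126001 to 4130000 held 4 GRTS bins and 0 neighbours. The usual cluster was short: 39 clusters had 3 bins, 34 of all clusters were a single GRTS bin with a neighbour on each side, and 9 were a pair of GRTS bins with a neighbour on each side. At the other end, 11 clusters had 7 bins or more and together held 111 bins, 77 of them GRTS. The 11 clusters with no GRTS bin were single neighbours of GRTS bins that had been left out. Some clusters lay close together, with 24 of them within 5 kb of the next cluster on the chromosome, while the median gap was 351 kb.

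Chromosome V held the most, with 31 clusters and 141 bins, 43.4% of the bins described against 20.9% of all bins in the table. Chromosome IV had 19 clusters and 66 bins, chromosomes I and II had 14 clusters and 49 bins each, and chromosome III had 6 clusters and 20 bins. Chromosome X, with 17.7% of all bins in the table, had none. When each chromosome was cut into 3 parts of equal length, 268 of the 325 bins (82.5%) lay in the outer parts. On chromosome I none of the 49 bins lay in the middle part, while on chromosome V 48 of 141 did. Most of these 48 lay in a single stretch, V 8825001 to 8890000. Its values repeat at a distance, as described below, so its bins are not independent observations.

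In N2 these bins had an ordinary level of Pol II. The median GRTS bin read 5.26 RPKM, the median neighbour 4.5 RPKM and the median of all bins tested 4.59 RPKM. Ranked among all bins of the N2 library, the median GRTS bin stood at percentile 54.5, and 0 of 166 GRTS bins lay above its 90th percentile. Neighbours spread more widely, from 0.27 to 97.2 RPKM in N2 against 1.08 to 16.5 RPKM for GRTS bins, and 8 of 159 lay above the 90th percentile.

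The other libraries with intact HRDE-1 were similar. The median GRTS bin read 3.79 RPKM in set-32, 5.66 RPKM in met-2 set-25 and 7.75 RPKM in the set-32 triple mutant. The medians of all bins followed the same order, at 3.62, 5.99 and 7.1 RPKM, so the median GRTS bin stood at percentile 50.9, 47.4 and 56.6 of those libraries. The median neighbour read 3.35, 5.39 and 6.77 RPKM.

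In the 4 libraries without HRDE-1 most GRTS bins were among the most occupied bins of the genome. The median GRTS bin read 29.4 RPKM in the quadruple mutant, 31.5 RPKM in hrde-1, 39.6 RPKM in the hrde-1 triple mutant and 56.8 RPKM in set-32 hrde-1. It stood at percentile 96.9, 94.3, 96.8 and 98.3 of these libraries, and 115 to 135 of the 166 GRTS bins lay above the 90th percentile. The median neighbour was lower, at 16.2, 12.9, 15.2 and 20.3 RPKM in the same order, at percentile 87.1, 76.5, 81.4 and 87.0, and 41 to 73 of 159 neighbours lay above the 90th. Together the 325 bins took 0.212 to 0.28% of the signal of a library with HRDE-1 and 1.05 to 1.62% of one without it. The 2 sets of 4 medians did not overlap for GRTS bins or for neighbours. Because each genotype had 1 library, the order of the 4 mutant libraries has no replicate check.

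**Figure D1:**
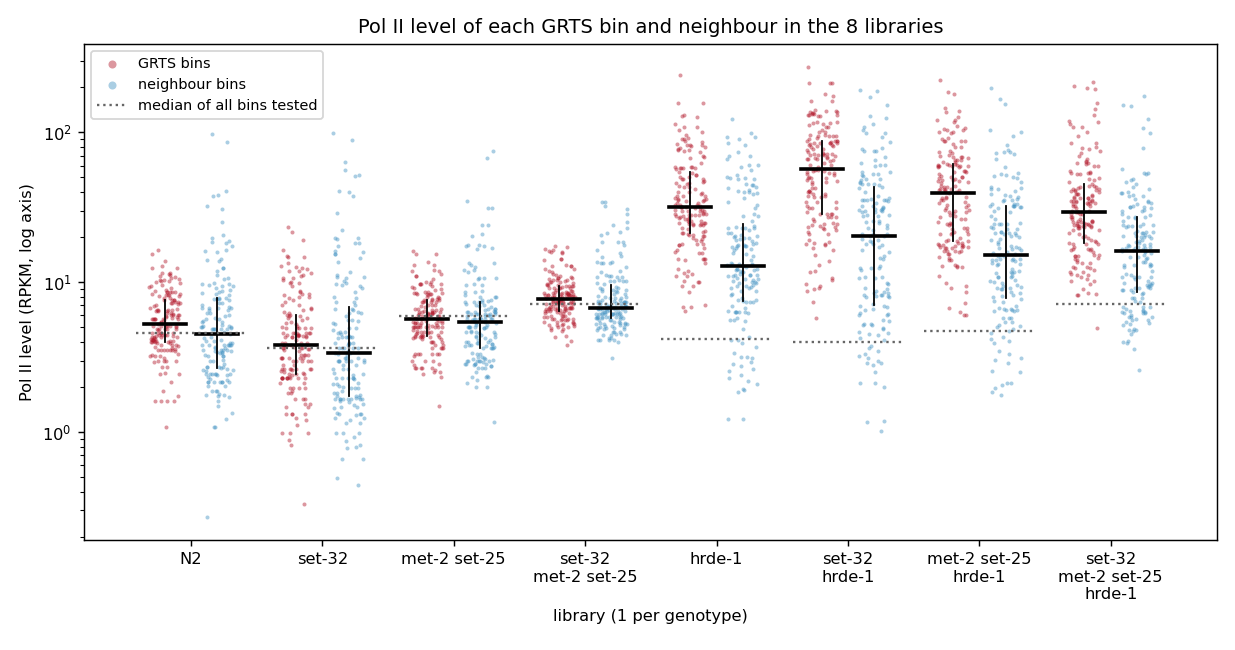
Pol II level in RPKM (log axis) of each of the 166 GRTS bins (red) and 159 neighbours (blue) in the 8 libraries. Thick bars are medians, thin lines run from the 25th to the 75th percentile, and dotted lines are the medians of all bins tested. The median GRTS bin lies between 3.79 and 7.75 RPKM in the 4 libraries with HRDE-1 and between 29.4 and 56.8 RPKM in those without.

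Each factor was fitted per bin with limma, on the log2(RPKM + 1) scale. The model was additive and held hrde-1 loss, set-32 loss and met-2 set-25 loss over the 8 libraries, so that each factor compares 4 libraries with 4. Calls are at a Benjamini-Hochberg adjusted p under 0.05 over all 100027 bins tested, two-sided. With loss of hrde-1, 162 of 166 GRTS bins rose and 102 of 159 neighbours rose, against 0.852% of all bins tested. None of the 325 fell, against 0.08% of all bins tested, and at an unadjusted p under 0.05 limma gave 0 lower GRTS bins and 1 lower neighbour, against 2.61% of all bins tested. Fitted without both evenly covered libraries, 162 GRTS bins and 105 neighbours rose by limma, against 0.796% of all bins in that fit. The median log2 change was 2.54 for GRTS bins and 1.34 for neighbours, at a median change of all bins of -0.04. The log2 change of GRTS bins, on the log2(RPKM + 1) scale, was at least 1 in 161 cases, at least 2 in 116 and at least 3 in 48. Among neighbours the same counts were 104, 42 and 6. All 4 mutant libraries were above all 4 others in 156 GRTS bins (94%) and 98 neighbours (61.6%), against 1.22% of all bins tested.

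**Figure D2:**
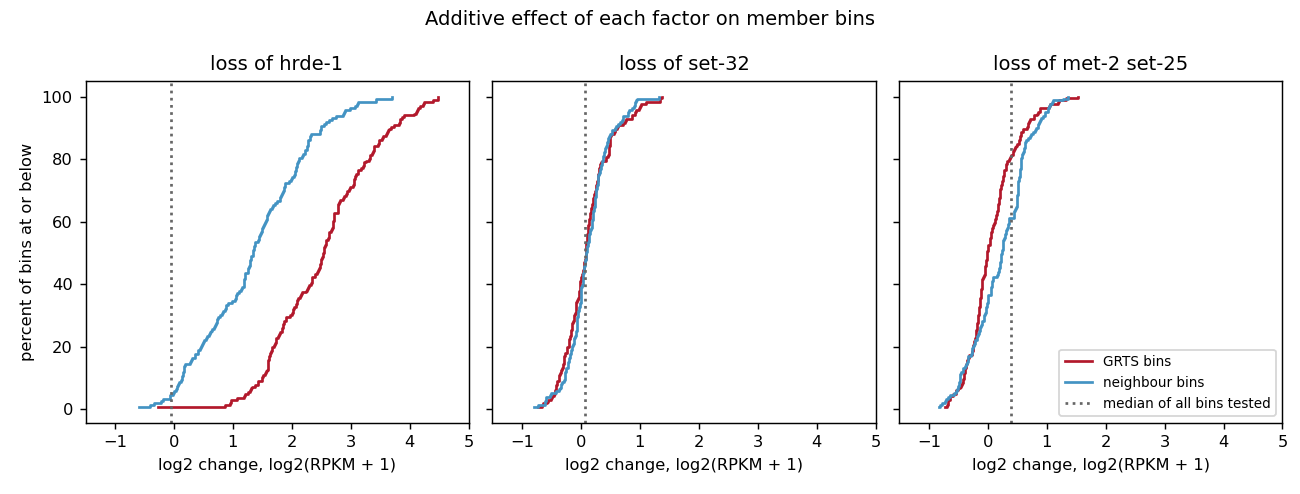
Cumulative percent of the 166 GRTS bins (red) and 159 neighbours (blue) by their log2 change, on the log2(RPKM + 1) scale, with loss of hrde-1, set-32 and met-2 set-25 in the additive fit over 8 libraries. Dotted lines are the median changes of all bins tested, -0.04, 0.07 and 0.40. Only in the hrde-1 panel do the curves lie far to the right of that line, with medians of 2.54 and 1.34.

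The highest changes were at a pair of bins on chromosome V, chosen after their values were seen. Bin V 8830001 to 8831000 read 11.1 RPKM in N2, 3.46 in set-32, 6.77 in the set-32 triple mutant and 5.49 in met-2 set-25. In the mutants it read 156 RPKM in hrde-1, 108 in the quadruple mutant, 214 in set-32 hrde-1 and 179.5 in the hrde-1 triple mutant. The 2 sets are far apart, and the log2 change was 4.48 ± 0.25 (SE). Bin V 8872001 to 8873000 gave similar values, from 3.29 to 12.4 RPKM with HRDE-1 and from 108 to 215 RPKM without, and a log2 change of 4.47 ± 0.26 (SE).

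These 2 bins belong to a stretch of chromosome V whose values repeat at a distance of 42 kb. The clusters V 8829001 to 8838000 and V 8839001 to 8848000 correspond to V 8871001 to 8880000 and V 8882001 to 8890000, and the short cluster V 8825001 to 8828000 to V 8867001 to 8870000. In 20 pairs of bins 42 kb apart, 98.1% of 160 values differed by less than 0.25 on the log2 scale, with a median difference of 0.05. Values between 2 and 8 RPKM came to within 0.1 of whole reads in only 17.2 to 37.5% of cases in the 4 long clusters, against 82.7% in bins that are neither marked nor neighbours. Whether the copies share reads was not tested, their separate changes are uncertain, and these 6 clusters are not 6 independent observations. Over all 325 bins the share was 54.4%, so fractions of reads were more frequent here than elsewhere, and their part in the results was not tested. It varied by cluster, from 100% in V 5481001 to 5489000 and 91.2% in IV 914001 to 923000 to 17.2% in V 8839001 to 8848000.

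The longest cluster, V 5181001 to 5202000, had 21 bins, 18 of them GRTS, and all 21 rose. Its mean level was 6.54 RPKM in N2, 4.94 in set-32, 7.17 in the set-32 triple mutant and 6.78 in met-2 set-25. It was 56.8 RPKM in hrde-1, 39.7 in the quadruple mutant, 82.99 in set-32 hrde-1 and only 35.1 in the hrde-1 triple mutant. The groups did not overlap (53.6 ± 21.7 against 6.36 ± 0.98 RPKM, SD, n = 4 each; mean log2 change 2.72 ± 0.25 SE). Here and below a cluster's value is the mean over its bins, the SE given is an average over them, and clusters were not tested as units. Within the cluster, in bins chosen after their values were seen, the hrde-1 library was lower near the end, with 113 RPKM at V 5191001, 23.95 RPKM at V 5198001 and 9.44 RPKM at V 5200001. In the same bins set-32 hrde-1 read 136, 94.6 and 58.6 RPKM.

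On chromosome II the cluster from 2149001 to 2164000 had 15 bins, 9 of them GRTS, and all rose. It read 3.62 to 8.14 RPKM in the 4 libraries with HRDE-1, and 36.3 RPKM in the quadruple mutant, 50.5 in hrde-1, 50.03 in the hrde-1 triple mutant and 79.4 in set-32 hrde-1. The mean log2 change was 3.10 ± 0.25 (SE). Of the 4 neighbours with the largest change, 2 lay in it between GRTS bins: II 2153001, from 1.75 to 5.28 RPKM with HRDE-1 to 30.3 to 77.3 RPKM without, and II 2151001, at log2 changes of 3.70 and 3.42.

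A cluster of 9 bins on chromosome IV, 914001 to 923000, behaved differently in the single mutant. It read 4.23 RPKM in N2, 3.15 in set-32, 7.40 in the set-32 triple mutant and 4.86 in met-2 set-25. The hrde-1 library read 13.2 RPKM, while the hrde-1 triple mutant read 75.3, set-32 hrde-1 98.9 and the quadruple mutant 139 RPKM. The groups did not overlap, and the hrde-1 library lay far below the other 3 mutants (mean log2 change 3.28 ± 0.30 SE). All 9 bins rose. Its first bin, the neighbour IV 914001 to 915000, was among the 4 neighbours with the largest change (log2 change 3.12), and its last bin, the neighbour IV 922001 to 923000, was low in every library, with a mean of 8.64 RPKM in the mutants.

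**Figure D3:**
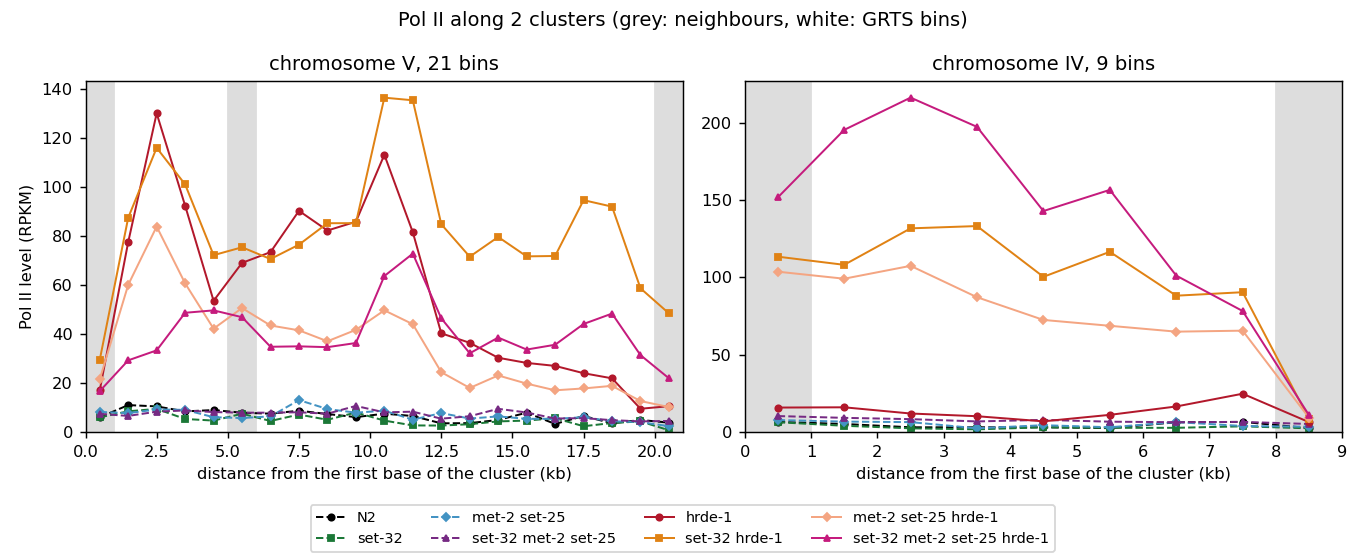
Pol II level in RPKM along the 21-bin cluster of chromosome V (left) and the 9-bin cluster of chromosome IV (right), by distance from the first base of the cluster in kb. Each line is 1 of the 8 libraries, solid where hrde-1 is lost, and neighbours are shaded grey. On the right the hrde-1 library (dark red) averages 13.2 RPKM and the other 3 hrde-1 mutant libraries 75.3 to 139 RPKM.

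Other clusters with the largest changes were IV 4126001 to 4130000 and V 18438001 to 18443000. IV 4126001 held 4 GRTS bins, whose mean was 12.1 ± 2.02 RPKM with HRDE-1 and 139.8 ± 24.4 RPKM without (SD, n = 4 each; mean log2 change 3.32 ± 0.22 SE), and all 4 bins rose. The neighbour IV 4132001 to 4133000, a cluster of its own a few bins away, rose by 3.43. V 18438001 read 2.43 to 6.49 RPKM with HRDE-1, and 25.1 RPKM in hrde-1, 50.2 in the quadruple mutant, 66.4 in set-32 hrde-1 and 92.3 in the hrde-1 triple mutant (mean log2 change 3.25 ± 0.28 SE). The copies V 8829001 and V 8871001 had mean log2 changes of 3.33 and 3.35, with all 9 bins higher in each. The copies V 8839001 and V 8882001, with 8 of 9 and 7 of 8 bins higher, had 2.06 and 2.08. On chromosome I the largest cluster, 225001 to 234000, changed less: its 9 bins all rose, from 7.51 ± 2.16 to 25.3 ± 4.01 RPKM (mean log2 change 1.57 ± 0.24 SE).

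Long clusters changed more than short ones. The median of the clusters' mean log2 changes was 2.72 for the 11 clusters of 7 bins or more, 1.79 for the 16 of 4 to 6 bins, 1.35 for the 39 of 3 bins and 1.37 for the 18 of 1 or 2 bins. The difference lay on the mutant side, with medians of 38.9, 34.4, 20.9 and 25.01 RPKM without HRDE-1 and of 5.49, 6.25, 5.60 and 5.44 RPKM with it. Long clusters hold more GRTS bins, but the order also held among GRTS bins alone: their median log2 change was 1.74 in clusters with 1 GRTS bin, 2.21 with 2 and 2.84 with 3 or more. These are descriptions, since bins of a cluster share their source and 4 of the 11 longest clusters are the copies on chromosome V. Bins left out for a mark also shorten some clusters.

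**Figure D4:**
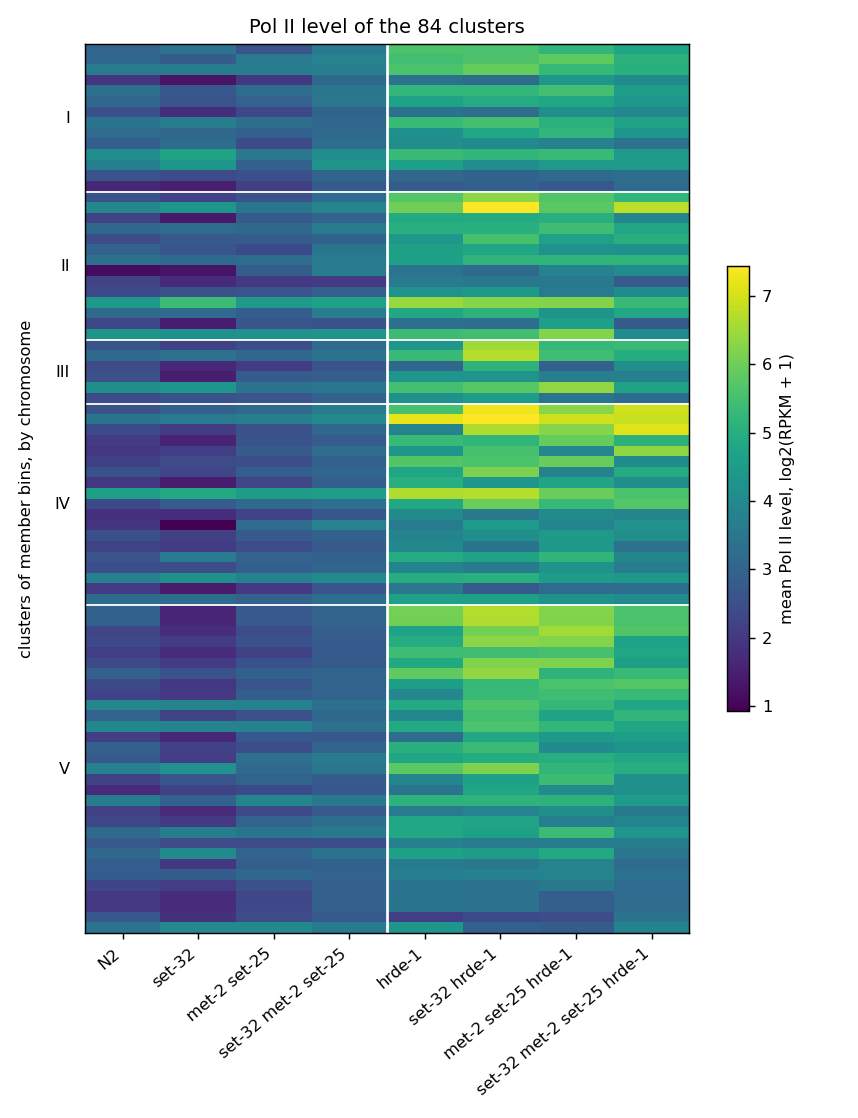
Mean Pol II level of the 84 clusters, as log2(RPKM + 1), in the 8 libraries. Rows are grouped by chromosome and sorted by mean hrde-1 log2 change, and the white vertical line separates libraries with HRDE-1 (left) from those without (right). In 71 clusters all 4 libraries on the right are above all 4 on the left.

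The rise reached the neighbours unevenly. All 13 neighbours that lie between 2 GRTS bins rose, with a median log2 change of 2.28. Of the neighbours on the outside of a run, 49 of 72 before it and 40 of 74 after it in table order rose, with medians of 1.35 and 1.20. Around single GRTS bins, both neighbours rose in 12 of 34 clusters, 1 in 12 and neither in 10. The 2 neighbours of such a bin differed by a median of 0.36 and up to 1.97 on the log2 scale. In clusters with 3 or more GRTS bins, 34 of 38 neighbours rose (89.5%), against 39 of 74 (52.7%) in clusters with 1.

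A neighbour usually read less than the GRTS bin it touched, and by more when HRDE-1 was lost. In 161 pairs of a neighbour and an adjacent GRTS bin, the neighbour was lower in 54 to 58.4% of pairs in each library with HRDE-1, at median log2 differences of -0.15 to -0.07. It was lower in 72.7 to 75.2% of pairs in each mutant library, at median differences of -0.56 to -0.41. Its hrde-1 log2 change was the smaller of the 2 in 129 of 161 pairs. Bins farther out, 2, 3, 4 and 5 kb from a GRTS bin and without the other marks, rose in 41.6, 23.6, 11.2 and 12% of cases, so that the neighbours' 64.2% lay between the GRTS bins and this flank. The GRTS mark could depend on hrde-1 mutant libraries, and unmarked bins would then be those with smaller changes. The contrasts of GRTS bins with neighbours and flank are therefore descriptions.

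**Figure D5:**
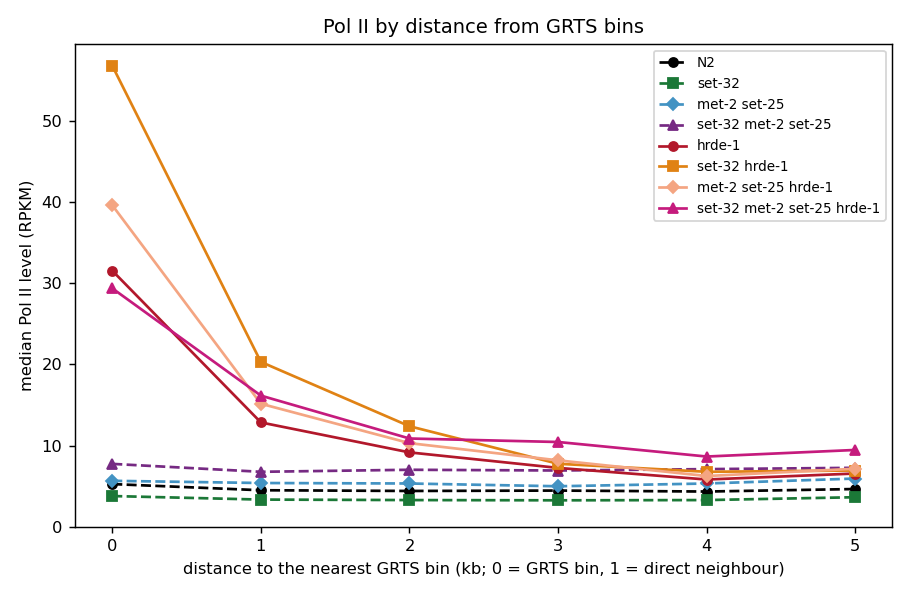
Median Pol II level in RPKM of bins at 0 (GRTS bins), 1 (neighbours) and 2 to 5 kb from the nearest GRTS bin, for each of the 8 libraries (solid lines: hrde-1 lost). The solid lines fall from 29.4 to 56.8 RPKM at 0 kb to 12.9 to 20.3 RPKM at 1 kb, and the dashed lines stay at 3.26 to 7.75 RPKM.

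The 57 neighbours that did not pass had a median of 4.13 RPKM with HRDE-1 and 6.54 RPKM without, and 49 of them had a positive change. The 4 with the smallest changes were V 5753001 (log2 change -0.60), I 13084001 (-0.40), V 16101001 (-0.33) and V 12645001 (-0.22), with limma adjusted p from 0.525 to 1. V 5753001 read 18.8 RPKM in N2, 9.61 in set-32, 18.7 in the set-32 triple mutant and 31.1 in met-2 set-25, and 9.85 to 15.8 RPKM in the 4 hrde-1 mutants. Its groups overlapped. Some neighbours were already highly occupied with HRDE-1 present: V 8847001 and its copy V 8889001, chosen after their values were seen, read 97.2 and 86.4 RPKM in N2 and 92.4 and 82.5 RPKM in hrde-1, and did not pass. Others with high levels did rise, such as III 12383001, also chosen after its values were seen, at 32.3 RPKM in N2 and 93.0 RPKM in hrde-1 (log2 change 2.0, limma adjusted p = 0.000105).

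Of the GRTS bins, 4 did not pass. I 11441001, IV 12507001 and V 1587001 had log2 changes of 0.87, 0.97 and 0.95 (limma adjusted p = 0.27, 0.0627 and 0.0715). V 16102001 had a log2 change of -0.27. It read 13.8 RPKM in N2, 23.4 in set-32, 15.9 in the set-32 triple mutant and 15.3 in met-2 set-25, and 32 in hrde-1, 16.6 in the quadruple mutant, 8.75 in set-32 hrde-1 and only 7.27 in the hrde-1 triple mutant. Only the hrde-1 library was above all 4 others, and the groups overlapped. Its cluster, V 16101001 to 16104000, was the only 1 of the 66 clusters of 3 bins or more with a negative mean (-0.20 ± 0.28 SE), and none of its bins passed. With the prefix of the library name as a further term it fell, as did its neighbour V 16101001 (log2 changes of -1.15 and -1.40, limma adjusted p = 0.0282 and 0.00152, the lowest over the 16 alternatives of each bin, of which the other 15 did not pass and reached up to 1). Leaving out set-32 hrde-1 or the hrde-1 triple mutant turned the change of V 16102001 to 0.13 and 0.04, and the mean of its cluster to 0.02 and 0.12. That mean ran from -0.54 without hrde-1 to -0.05 without met-2 set-25 in the fits where it stayed negative.

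The other clusters with the smallest changes included a regular run on chromosome V. The clusters V 14038001 to 14041000, V 14043001 to 14046000, V 14048001 to 14051000 and V 14053001 to 14056000 each had 3 bins and began 5 kb apart. In each the central GRTS bin rose and neither neighbour did, 4 of 12 bins in all, and the mean log2 changes were 0.52 to 0.68. Without the set-32 library they were 0.30 at 14043001 and 0.34 at 14048001. The clusters at 14043001 and 14048001 differed by at most 0.41 on the log2 scale in any of 24 values. Only 18.3% of values between 2 and 8 RPKM came to within 0.1 of whole reads, and whether these clusters share reads was not tested. The cluster I 13084001 to 13087000 also changed little, from 3.35 ± 1.97 to 6.71 ± 1.14 RPKM (SD, n = 4; mean log2 change 0.43 ± 0.34 SE), and 1 of its 3 bins rose. Its mean was 0.26 without set-32 and 0.26 without hrde-1.

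Each pair of libraries whose genotypes differ by hrde-1 alone showed the rise. The pairs with N2 and with the set-32 triple mutant also differ in the prefix of the library name. The median GRTS difference was 2.38 against N2, 3.48 against set-32, 1.80 against the set-32 triple mutant and 2.41 against met-2 set-25, and 163 to 166 of 166 GRTS bins were higher. For neighbours the medians were 1.23, 1.81, 0.80 and 1.39, with 139 to 150 of 159 higher. The medians of all bins in these pairs ran from -0.18 to 0.07. The lowest value came from the pair in which both libraries were evenly covered, and the part of coverage in it was not tested.

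Loss of set-32 gave no call among these bins. By limma 0 of 325 rose and 0 fell, against 0% and 0.001% of all bins tested, and at an unadjusted p under 0.05 there were 37 higher and 9 lower (11.4 and 2.77% of the 325), against 2.04 and 2.09% of all bins tested. The smallest adjusted p was 0.288. Median log2 changes were 0.08 for GRTS bins and 0.09 for neighbours, at 0.07 for all bins, and the median SE of a bin was 0.25, so changes of the usual size would not have been detectable in single bins. In fits without 1 library, in which at most 0.037% of all bins rose and at most 0.057% fell, some counts differed: 6 GRTS bins and 2 neighbours rose without N2, 4 and 5 without set-32, 1 GRTS bin without the quadruple mutant and 1 neighbour without met-2 set-25, while without set-32 hrde-1 1 neighbour rose and 1 GRTS bin fell. With the prefix of the library name as a term, 11 GRTS bins and 1 neighbour rose, against 0.028% of all bins in that fit.

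Among clusters of at least 3 bins, the 4 with the largest mean set-32 change all read higher in set-32 hrde-1 than in hrde-1. IV 16316001 to 16320000 read 2.94 RPKM in N2, 3.38 in set-32, 8.56 in the set-32 triple mutant and 6.12 in met-2 set-25. It read 19.9 RPKM in hrde-1 and 45.7 in set-32 hrde-1, and 14.4 in the hrde-1 triple mutant and 81.4 in the quadruple mutant. The set-32 mutant was thus the higher library in all 4 pairs (mean log2 change 0.96 ± 0.27 SE, lowest limma adjusted p in the cluster 0.288). The others were IV 914001 to 923000 (0.92 ± 0.30 SE), II 10936001 to 10941000 (0.84 ± 0.22 SE) and III 13230001 to 13233000 (0.76 ± 0.31 SE). Single libraries moved 3 of these means: IV 16316001 had 0.51 without the hrde-1 triple mutant, IV 914001 had 0.39 without hrde-1 and 0.58 without set-32 hrde-1, and III 13230001 had 0.33 without set-32 hrde-1 and 1.25 without set-32. II 10936001 read 64.0 RPKM in hrde-1 and 172 in set-32 hrde-1, and 53.4 in the hrde-1 triple mutant and 109 in the quadruple mutant. The 4 with the smallest changes were V 16925001 to 16928000, I 10486001 to 10490000, IV 8323001 to 8326000 and III 3442001 to 3445000, at -0.37 to -0.24. Each of these means moved by more than 1.5 times without a single library. III 3442001 had 0.14 without set-32, -0.16 without met-2 set-25, -0.13 without hrde-1 and -0.14 without the quadruple mutant, and -0.50 without the set-32 triple mutant, -0.48 without set-32 hrde-1 and -0.49 without the hrde-1 triple mutant. Without set-32, V 16925001 had -0.17 and I 10486001 -0.16. Without the set-32 triple mutant, V 16925001 had -0.57, I 10486001 -0.48 and IV 8323001 -0.48, and without the quadruple mutant -0.24, -0.14 and -0.13. None of these 8 clusters had a bin past the threshold for set-32.

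Pair by pair, the direction of the set-32 difference at GRTS bins changed with the background. The median was -0.27 in N2, with 45 of 166 bins higher, and 0.36 in met-2 set-25, with 137 higher. It was 0.39 in hrde-1, with 127 higher, and -0.22 in the hrde-1 triple mutant, with 58 higher. The medians of all bins were -0.17, 0.19, -0.03 and 0.38 in the same pairs. In the met-2 set-25 and hrde-1 triple mutant backgrounds the library with set-32 loss was evenly covered and its partner was not. Set-32 loss and coverage therefore cannot be told apart in those pairs. Only in the hrde-1 background do both libraries share a name prefix. There set-32 hrde-1 was above hrde-1 by at least 1 on the log2(RPKM + 1) scale in 17 of 84 clusters, against 1 cluster in the reverse direction. The 17 include the copies V 8825001 and V 8867001. Counted as single bins in the same pair, 41 of 166 GRTS bins and 25 of 159 neighbours were above by at least 1. In the reverse direction there were 1 GRTS bin and 1 neighbour. Of all 100027 bins tested, 1093 and 1054 single bins reached these limits. The differences between libraries here have no replicate check.

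Whether the hrde-1 change differed with set-32 was tested by adding a product term, which leaves 3 residual degrees of freedom. By limma 9 of 325 bins had a larger change when set-32 was also lost, against 0.133% of all bins tested, and 3 a smaller one, against 0.021%. The smallest p was at V 5198001, near the end of the longest cluster, which read 23.95 RPKM in hrde-1 and 94.6 in set-32 hrde-1, against 6.48 in N2 and 2.31 in set-32 (log2 interaction 2.23 ± 0.42 SE, limma adjusted p = 0.00207). III 13238001, a neighbour, read 11.8 RPKM in hrde-1 and 65.6 in set-32 hrde-1, and 14.1 and 33.3 RPKM in the corresponding met-2 set-25 libraries (2.30 ± 0.44 SE, limma adjusted p = 0.00297). IV 916001, IV 920001 and III 13231001 had interactions of 2.15, 1.99 and 2.40, and 5 of the 9 bins lay in the cluster IV 914001 to 923000. In the other direction I 11441001 read 17.9 RPKM in hrde-1 and 9.65 in set-32 hrde-1, against 5.81 in N2 and 10.98 in set-32 (-1.93 ± 0.42 SE, limma adjusted p = 0.0133).

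These interaction calls rested on the scaling and on single libraries. The count was 0 in either direction with centred libraries, after quantile normalization and with the filter raised to 5 RPKM. Leaving out set-32 hrde-1 gave 0 higher and 5 lower, at 0.148 and 0.04% of all bins in that fit. Without N2 they were 2 and 1 (all bins 0.032 and 0.014%), without set-32 2 and 3 (0.033 and 0.016%), and without hrde-1 itself 8 and 7 (0.337 and 0.099%). The 8 higher bins without hrde-1 were mostly other bins. They included only 2 of the 8 GRTS bins called in the fit of 8 libraries, and its 1 neighbour. They were 8 and 0 without the hrde-1 triple mutant (0.027 and 0.002%), 16 and 1 without the quadruple mutant (0.095 and 0.009%), and 43 and 4 without the set-32 triple mutant (0.543 and 0.121%). Without both evenly covered libraries, 73 bins were higher and 3 lower, against 0.818 and 0.177% of all bins in that fit. The median interaction was 0.08 for GRTS bins and 0.07 for neighbours, against 0.14 for all bins.

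Loss of both MET-2 and SET-25 changed few of these bins. By limma 1 GRTS bin and 1 neighbour rose, against 0.318% of all bins tested, and 1 neighbour fell, against 0.127%, so that the shares were near the background. At an unadjusted p under 0.05, 59 were higher and 25 lower (18.2 and 7.69% of the 325), below the 26.9 and 8.04% of all bins tested. IV 916001 rose by 1.54 ± 0.33 (SE; limma adjusted p = 0.035), with 2.97 and 2.31 RPKM in N2 and set-32, 6.32 and 8.25 in met-2 set-25 and the set-32 triple mutant, 11.9 in hrde-1 and 107 in the hrde-1 triple mutant. Over its 16 alternatives the limma adjusted p ran from 8.8e-07 to 0.486, and 7 did not pass, among them those without hrde-1 (0.0928) and without set-32 (0.113). II 13250001, a neighbour, read 1.22 and 1.48 RPKM in N2 and set-32 and 6.16 and 11.8 RPKM in met-2 set-25 and the set-32 triple mutant (log2 change 1.36, limma adjusted p = 0.0182). Its limma adjusted p ran from 0.0014 to 0.733, and 6 alternatives did not pass, among them those without set-32 (0.0587) and without the set-32 triple mutant (0.186). V 321001, the last bin of V 319001 to 322000, fell by 0.83 (limma adjusted p = 0.0472), and it did not pass under 12 of the 16 alternatives run, over which the limma adjusted p ran from 0.00556 to 0.791.

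The median met-2 set-25 change was -0.01 for GRTS bins and 0.24 for neighbours, while the median of all bins rose by 0.40. Both evenly covered libraries were met-2 set-25 mutants, and in the fit without them the median of all bins was 0.10. The part of coverage in the shift of all bins was not tested. In the fit of 8 libraries the medians of GRTS bins and of neighbours were lower than that of all bins. With centred libraries they were -0.51 and -0.26, with 11 GRTS bins and 13 neighbours lower (7.38% of the 325, against 6.83% of all bins in that fit). After quantile normalization the medians were -0.10 and -0.04 and 0 GRTS bins or neighbours passed in either direction. Leaving out the hrde-1 triple mutant gave 16 higher and 9 lower GRTS bins and 29 higher and 13 lower neighbours. That is 13.8 and 6.77% of the 325, below the 31.0 and 7.48% of all bins in that fit. Leaving out N2 gave 14 and 6 and 15 and 3, together 8.92 and 2.77%, against 4.87 and 1.91% of all bins. Without set-32 hrde-1 13 GRTS bins and 5 neighbours were higher (all bins 0.524%), without the quadruple mutant 8 and 3 (0.329%), and without met-2 set-25 3 and 3 (0.186%), with 0 lower in each. Without set-32 0 were higher and 1 GRTS bin and 2 neighbours lower (all bins 0.167 and 0.047%), without hrde-1 only 1 neighbour was higher (0.142%) and without the set-32 triple mutant only 1 GRTS bin (0.077%). Clusters with the largest mean change were IV 914001 to 923000 (0.99 ± 0.30 SE), I 11299001 to 11302000 (0.94 ± 0.26 SE), V 20304001 to 20307000 (0.80 ± 0.24 SE) and I 13084001 to 13087000 (0.72 ± 0.34 SE). Those with the smallest were V 319001 to 322000 (-0.79 ± 0.19 SE), III 12381001 to 12384000 (-0.45 ± 0.25 SE), II 10936001 to 10941000 (-0.45 ± 0.22 SE) and V 5481001 to 5489000 (-0.42 ± 0.27 SE). Single libraries moved 4 of these 8 means by more than 1.5 times. IV 914001 had 0.46 without hrde-1, II 10936001 had -0.29 without set-32 hrde-1, and III 12381001 had -0.73 without the hrde-1 triple mutant and -0.28 without the quadruple mutant. V 5481001 had -0.79 without set-32 and -0.70 without the set-32 triple mutant, and -0.21 and -0.20 without set-32 hrde-1 and the hrde-1 triple mutant. V 5481001 read 32.2 and 40.4 RPKM in hrde-1 and set-32 hrde-1 and 16.2 and 18.6 RPKM in the corresponding met-2 set-25 libraries, while all 8 of its bins rose with hrde-1 loss.

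Where HRDE-1 and SET-32 were both lost, GRTS bins stood lower if MET-2 and SET-25 were lost as well. The median GRTS difference between the quadruple mutant and set-32 hrde-1 was -0.87, with 20 of 166 bins higher, while the median of all bins in that pair was 0.52. Between the hrde-1 triple mutant and hrde-1 it was 0.01, with 83 of 166 higher. In N2 it was 0.10 and in set-32 0.83, at medians of all bins of 0.15 and 0.70. The first pair and the pair in set-32 each compare an evenly covered library with one that was not, and the part of coverage was not tested. The libraries of the pairs in hrde-1 and in set-32 also differ in the prefix of the library name. In the interaction of hrde-1 with met-2 set-25, 0 of 325 bins passed by limma in either direction, against 0% and 0.001% of all bins tested, with 2 higher and 92 lower at an unadjusted p under 0.05 (28.9% of the 325 in either direction and 28.3% lower), against 2.43 and 1.6% of all bins tested. The median interaction was -0.76 for GRTS bins and -0.45 for neighbours, against -0.11 for all bins. In either direction 0 of these bins passed with centring, quantile normalization, either other pseudocount, either other filter or without both evenly covered libraries. Of all bins in those fits, at most 0.021% were higher and 0.062% lower. Calls appeared only in fits without 1 library. Without N2 45 bins passed as lower (all bins 0.26%), and without the quadruple mutant 13 as lower (0.281%) and 1 as higher (0.069%). Passing as lower were 11 without met-2 set-25 (0.035%), 9 without hrde-1 (0.054%) and 6 without the hrde-1 triple mutant (0.032%). Without set-32 hrde-1 5 passed as higher (0.014%) and 1 as lower (0.033%), without the set-32 triple mutant 1 as lower (0.041%) and without set-32 1 as higher (0.022%).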

How the data were processed

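Pol II ChIP-seq libraries of 8 genotypes were analysed, of 11 samples in the series. The authors deposited RPKM values in genome bins of 1 kb. Per the submitters' processing notes, the aligner was Bowtie 0.12.7. No genome build, treatment of reads with several matches or filter was given in the sources used here. Only columns named in a sample's labels were read, and 35 other library columns were not used. RPKM was transformed to log2(RPKM + 1), which understates changes of low bins. The 100027 bins whose mean reached 2 RPKM were fitted with limma 3.58.1 (R 4.3.3, trend in intensity). Simulated data with independent noise and additive effects were also run through the fit. They held no interaction, uneven coverage or shared reads, so that run does not bear on those. The model was additive in 3 factors, with 4 residual degrees of freedom. With 1 library per genotype, the error is the spread around that model, which may be technical, since no label ties libraries to separate cultures. The fit was made on the whole table and only the rows of GRTS bins and neighbours are printed. Tables and figures were made with Python 3.11.15, pandas 2.3.3, numpy 2.4.6 and matplotlib 3.10.9. The bins, lists and tests were chosen with earlier results of these data known. Named were the 8 clusters with the most bins; of clusters with at least 3 bins, the 6 largest and 6 smallest mean hrde-1 changes and the 4 largest and smallest set-32 and met-2 set-25 changes; GRTS bins not passing for hrde-1; the 4 neighbours with the largest and smallest hrde-1 change; and up to 6 bins passing another test. Alternatives were centring, quantile normalization, pseudocounts of 0.5 and 2 RPKM, filters of none and 5 RPKM, the library-name prefix as a term, and leaving out libraries.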

Additional observations from a re-analysis of the deposited data

Results flagged for a closer look

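A library far from the others of its set of 4 was looked for in 60 sets, the 2 medians and the named clusters with and without HRDE-1, and 2 sets had one, where chance gives one in about 1 in 20 sets. In V 20304001 to 20307000 14.3 RPKM was read in hrde-1, against 39.3 to 42.3 RPKM in the remaining 3 hrde-1 mutant libraries. In V 16925001 to 16928000 the set-32 library read 2.91 RPKM and the other 3 libraries with HRDE-1 6.27 to 6.78 RPKM.

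At 6 of the named bins the hrde-1 change differed with set-32 by the test of the product term. The log2 interaction was 2.40 at III 13231001, 2.30 at III 13238001, 2.23 at V 5198001, 2.15 at IV 916001 and 1.99 at IV 920001, and -1.93 at I 11441001 (limma, each at an adjusted p under 0.05). None of these calls was found with centred libraries or after quantile normalization.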

How the results depend on the processing

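The rise with hrde-1 loss was found under every alternative run: 156 to 164 of 166 GRTS bins and 87 to 107 of 159 neighbours passed, and 151 GRTS bins and 79 neighbours did so in every setting. With the filter of 5 RPKM only 303 of the 325 bins were tested, and untested bins count here as not passing. Of all bins tested, 0.685 to 1.33% rose in these fits. With the prefix as a term 1 GRTS bin and 1 neighbour fell, namely V 16102001 and V 16101001. No paired analysis was possible because each genotype had 1 library, so no replicate number could serve as a block; libraries that differ by 1 factor are compared in the report without a test. For met-2 set-25, GRTS bins higher (1 as reported) were 3 with a pseudocount of 2 RPKM, where 0.622% of all bins rose. They were 0 with centring, quantile normalization, a mean of at least 5 RPKM, the prefix or without both evenly covered libraries. GRTS bins lower were 11 with centring, where 6.83% of all bins fell. Neighbours higher (1) were 0 with quantile normalization, a mean of at least 5 RPKM, the prefix or without both evenly covered libraries. Neighbours lower (1) were 13 with centring (all bins 6.83%) and 2 with a pseudocount of 2 RPKM (all bins 0.258%). They were 0 with 0.5 RPKM, no filter, quantile normalization, a mean of at least 5 RPKM or without both evenly covered libraries. The median neighbour changed by -0.26 with centring. For set-32, 11 GRTS bins and 1 neighbour rose with the prefix, against 0.028% of all bins in that fit. The interaction of hrde-1 with set-32 (9 higher, 3 lower) gave 0 and 0 with centring, quantile normalization and a mean of at least 5 RPKM. It gave 16 higher with a pseudocount of 2 RPKM (all bins 0.199%) and 73 higher without both evenly covered libraries (all bins 0.818%). Leaving out 1 library at a time, GRTS bins ran from 0 to 16 higher and 0 to 9 lower for met-2 set-25, and from 0 to 6 and 0 to 1 for set-32. Neighbours ran from 0 to 29 and 0 to 13 for met-2 set-25 and from 0 to 5 higher for set-32. The highest met-2 set-25 counts came from the fit without the hrde-1 triple mutant, where 31.0% of all bins rose and 7.48% fell. For set-32 at most 0.037% of all bins rose and at most 0.057% fell in these fits. Interactions ran from 0 to 43 higher and 0 to 7 lower for set-32, at 0.543 and 0.099% of all bins in the fits with the highest counts. For met-2 set-25 they ran from 0 to 5 and 0 to 45, at 0.014 and 0.26% of all bins in such fits. The hrde-1 change of V 16102001 ran from -0.76 to 0.13 and was positive without set-32 hrde-1 (0.13) or the hrde-1 triple mutant (0.04). The cause of these differences was not tested, except that a higher filter leaves fewer bins. The depth, about 30.0 to 65.9 reads at 10 RPKM, limits single low bins.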
